A study of Mus musculus with 10 samples.

Results

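Gm10033, Zfp868, Zfp869, Zfp963 and Zfp866 are neighbours in a cluster of zinc finger genes on mouse chromosome 8, which lies 37 to 48 genes away from Crtc1, the gene that is deleted in Crtc1-/- mice. The 5 genes were taken by name, with every probe set whose annotation names only 1 of them, and each has 1 such probe set (5 of 45037 probe sets, 5 of 18193 genes). They were chosen by their place near Crtc1 and by the log2 fold changes between the genotypes, which ran in opposite directions among neighbours of the family, so their genotype differences are described here and carry no test. RNA came from the cortex of 5 WT and 5 Crtc1-/- (Crtc1KO in the labels) C57BL/6N females, all adult at 2 months, untreated and bred as littermates, and was measured on Affymetrix mouse genome arrays. Each array value is the log2 signal of a probe set, as normalized by the authors, and was made from 300 ng of RNA of the whole dissected cortex. The knockout is germline, so every cell lacks Crtc1 and every Crtc1-/- chromosome also carries the DNA that is inherited with the targeted allele. The loss of Crtc1 and this linked DNA cannot be told apart in 2 groups of mice. In bulk tissue, fewer cells of a type and less RNA per cell cannot be told apart either.

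Within the cluster, 2 genes had a higher mean in Crtc1-/- cortex and 3 had a lower one. The sign of the mean difference alternated from each measured gene to the next along the chromosome. This alternation rests on Zfp963, whose log2 fold change was 0.21 (standard error 0.13) with overlapping groups, so its sign is uncertain. Opposite directions among neighbours also entered the choice of the genes. Gm10033 read 3.99 ± 0.53 in WT and 2.94 ± 0.12 in Crtc1-/- mice, Zfp868 read 7.28 ± 0.10 and 7.74 ± 0.07, Zfp869 read 6.07 ± 0.07 and 5.79 ± 0.09, Zfp963 read 5.42 ± 0.31 and 5.64 ± 0.14, and Zfp866 read 7.29 ± 0.05 and 7.09 ± 0.09 (SD, n = 5 per genotype, log2 scale). In 4 of the 5 genes no Crtc1-/- mouse overlapped with a WT mouse, and Zfp963 was the exception. Such a separation was seen in 3.14% of the 18193 measured genes. The same contrast helped to choose the 5 genes, so nothing is read from this count.

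Zinc finger proteins of the Zfp families are mostly transcriptional repressors that hold DNA through tandem arrays of C2H2 fingers. Many of those encoded in clusters carry a KRAB domain, which recruits the corepressor TRIM28 and, through it, the histone methyltransferase SETDB1 and heterochromatin proteins. Such genes arose by repeated local duplication, differ in number and sequence between mouse strains, and are known for silencing transposable elements and for guarding imprinted genes. CRTC1 is a coactivator of CREB, the factor that binds cAMP response elements (CRE) in neurons.

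The stretch from Gm10033 to Zfp866 holds 12 genes of the reference annotation (GRCm38.p6), of which 8 are protein coding, 3 are pseudogenes and 1 is a long noncoding RNA. The arrays measured 5 of them, all protein coding, and the coding genes Gm9495, Gm7697 and Zfp964 had no probe set that names them alone. Gm10033 is farthest from Crtc1 at 48 positions, followed by Zfp868 at 43, Zfp869 at 41, Zfp963 at 39 and Zfp866 at 37. The name Gm10033 marks a predicted gene and does not tell whether it encodes zinc fingers, so the term zinc finger cluster rests on its 4 named neighbours. All 5 genes are read from the minus strand. The start of Gm10033 lies 230.0 kb from that of Zfp868, and the next gaps are 91.4 kb, 33.1 kb and 24.9 kb, so that Zfp869, Zfp963 and Zfp866 are the closest group within a span of 379 kb.

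The 5 promoters are shown because they display what the neighbours share in sequence and where they differ. RefSeq windows (GRCm38.p6), which run from 250 bases before to 50 bases after each annotated start, matched all 5 genes, with 2 starts each for Gm10033 and Zfp868. Printed are 120 bases before and 30 bases from the start onward, and capitals mark the CCAAT box (CCAAT), the letters CCGCCAT, the CRE (TGACGTCA) and its short form (TGACG or CGTCA).
Gm10033 (chr8:69395515-69395664, minus strand): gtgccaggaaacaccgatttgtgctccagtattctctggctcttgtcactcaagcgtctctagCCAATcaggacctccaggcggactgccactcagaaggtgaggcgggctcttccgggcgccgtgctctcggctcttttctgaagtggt
Zfp868, upstream start (chr8:69625519-69625668, minus strand): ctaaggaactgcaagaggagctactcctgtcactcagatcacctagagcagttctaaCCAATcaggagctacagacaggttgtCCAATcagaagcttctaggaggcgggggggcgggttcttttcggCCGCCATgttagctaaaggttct
Zfp868, downstream start (chr8:69625146-69625295, minus strand): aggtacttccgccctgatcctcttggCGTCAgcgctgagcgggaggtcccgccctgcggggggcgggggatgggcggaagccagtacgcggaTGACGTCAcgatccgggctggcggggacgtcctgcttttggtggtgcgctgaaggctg
Zfp869 (chr8:69716873-69717022, minus strand): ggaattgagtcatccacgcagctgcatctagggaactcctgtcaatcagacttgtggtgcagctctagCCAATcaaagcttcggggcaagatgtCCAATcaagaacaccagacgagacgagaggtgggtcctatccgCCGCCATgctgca
Zfp963 (chr8:69749933-69750082, minus strand): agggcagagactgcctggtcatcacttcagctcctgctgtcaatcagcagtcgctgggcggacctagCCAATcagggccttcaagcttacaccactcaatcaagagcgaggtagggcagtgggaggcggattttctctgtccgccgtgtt
Zfp866 (chr8:69774882-69775031, minus strand): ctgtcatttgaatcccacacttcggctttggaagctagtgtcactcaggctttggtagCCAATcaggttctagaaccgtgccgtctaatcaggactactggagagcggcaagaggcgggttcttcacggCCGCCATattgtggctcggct

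A CCAAT box, the binding letters of the factor NF-Y, stood in the windows of all 5 genes, and in each gene at least 1 lay between 26 and 63 bases before the start. Zfp868 (upstream start) and Gm10033 held 2, and Zfp869 held 4. CCAAT in either orientation was found in 37.4% of all 32851 windows of this length and in 47.9% of the 365 windows of other Zfp genes. The longest letters common to the windows of all 5 genes were CCAATCAG, which 4.10% of all windows hold on either strand, as do 51 of the 365 windows of other Zfp genes. In Gm10033, Zfp963 and Zfp866 these letters began 57, 53 and 62 bases before the start, in Zfp868 they occurred 63 and 37 bases before it, and in Zfp869 they lay 210 bases before it, outside the printed part.

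CCGCCAT, which lies within the known motif of the factor YY1, followed the start by 8 bases in Zfp868 (upstream start), 18 in Zfp869 and 10 in Zfp866, and was in the windows of neither Gm10033 nor Zfp963. Among all windows 4.05% hold these letters, and among those of other Zfp genes 8.49%. Of pairs of promoters, Gm10033 shared its longest stretch with Zfp869 (CTCTAGCCAATCA) and with Zfp963 (CTAGCCAATCAGG), both of 13 bases, as was that of Zfp868 with Zfp869 (TCCTGTCACTCAG). The shortest such stretch, 9 bases, was between Zfp868 and Zfp963.

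The full CRE stood in 1 of the 5 genes, Zfp868, 28 bases before its downstream start, and in 1.79% of all windows and 3.29% of the windows of other Zfp genes. Both orientations of TGACG lie within it, and another copy stood 94 bases before the same start. TGACG in either orientation was found in 20.8% of all windows and 29.3% of the windows of other Zfp genes. Zfp963 and Zfp866 held 1 copy each, 171 and 197 bases before the start, and Gm10033 and Zfp869 held none. A match of letters does not show that a factor binds there, and the place of the Zfp868 probe set relative to its starts is not given in the sources used here. The CCAAT box, CCGCCAT and the stretches shared by pairs were looked for after the sequences had been seen.

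Gm10033, a predicted gene at the outer end, had the largest difference in array value of the cluster. Its probe set 1438123_at read 4.46, 4.64, 3.81, 3.55 and 3.50 in WT replicates 1 to 5 and 2.83, 2.97, 3.13, 2.86 and 2.93 in Crtc1-/- replicates 1 to 5. WT replicates 1 and 2 stood above the other WT mice, and the lowest WT mouse still lay 0.37 above the highest Crtc1-/- mouse. The log2 fold change was -1.05 (standard error 0.20), a level of 0.483 of WT. The signal was low, since only 19.9% of probe sets had a lower mean, and calls of presence or absence were not used here, so whether the Crtc1-/- values lie above background is not known and the ratio describes array signal only. Its WT values spread 4.53 times as widely as its Crtc1-/- values by SD.

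The difference of Gm10033 was smaller without its highest mice. When WT replicates 1 and 2 were left out together, an alternative chosen after the values were seen that must shrink the difference, the log2 fold change was -0.68 (standard error 0.09). It was -0.65 (standard error 0.28) with the mean of hippocampal markers as a covariate and -0.67 (standard error 0.21) with that of oligodendrocyte markers. The hippocampal markers (11 of 11 measured) had means between 6.152 and 6.350 in WT and between 5.978 and 6.147 in Crtc1-/- mice. These ranges do not overlap, so this covariate moved with genotype. Among WT mice the order of these markers was not that of Gm10033: WT replicate 2 was highest for both, but WT replicate 4 was the next highest for the markers and among the 2 lowest for Gm10033. The oligodendrocyte means were 10.04 and 9.97 in WT replicates 1 and 2, where Gm10033 read highest. In the other WT mice they ran from 10.28 to 10.30. The part of tissue composition in the Gm10033 difference beyond these values was not tested.

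Zfp868, a C2H2 zinc finger gene, had the larger of the 2 higher readings. Probe set 1424091_at read 7.15, 7.28, 7.25, 7.27 and 7.44 in WT mice and 7.77, 7.63, 7.80, 7.76 and 7.72 in Crtc1-/- mice. The groups were apart by 0.20, and each group spanned less than 0.3. The log2 fold change was 0.46 (standard error 0.06), which is 1.38 times the WT array signal. This fold change ran from 0.40 to 0.50 over all 20 alternative settings.

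Zfp869, which lies 2 positions closer to Crtc1 than Zfp868, went the other way. Its probe set 1429473_at read 6.04, 6.02, 6.06, 6.20 and 6.05 in WT mice and 5.77, 5.65, 5.78, 5.84 and 5.90 in Crtc1-/- mice. WT replicate 4 stood apart above the other 4 WT mice, which lay within 0.03 of each other, and the groups were apart by 0.12. The log2 fold change was -0.28 (standard error 0.06), or 0.821 of the WT array signal.

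Zfp963 was the only gene of the cluster whose groups overlapped. Probe set 1435491_at read 5.82, 5.58, 5.47, 5.02 and 5.23 in WT mice and 5.71, 5.61, 5.41, 5.77 and 5.69 in Crtc1-/- mice. WT replicate 1 was the highest of all 10 arrays and WT replicate 4 the lowest. The log2 fold change of 0.21 (standard error 0.13) fell to 0.11 without WT replicate 4 and was 0.31 without WT replicate 1. With the oligodendrocyte marker mean as a covariate it was 0.47 (standard error 0.13). These markers (11 of 13 measured) had means between 9.97 and 10.30 in WT and between 10.23 and 10.55 in Crtc1-/- mice, and were lowest in WT replicates 1 and 2, the arrays in which Zfp963 read highest among WT mice. The part of tissue composition in the Zfp963 difference beyond these values was not tested.

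Zfp866, the cluster gene closest to Crtc1, had a small difference and the least spread among mice. Probe set 1455334_at read 7.35, 7.26, 7.29, 7.23 and 7.32 in WT mice and 7.15, 6.94, 7.11, 7.08 and 7.15 in Crtc1-/- mice. The groups did not overlap, but the lowest WT mouse and the highest Crtc1-/- mice were only 0.07 apart. The log2 fold change was -0.20 (standard error 0.05), or 0.869 of the WT array signal.

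**Figure D1:**
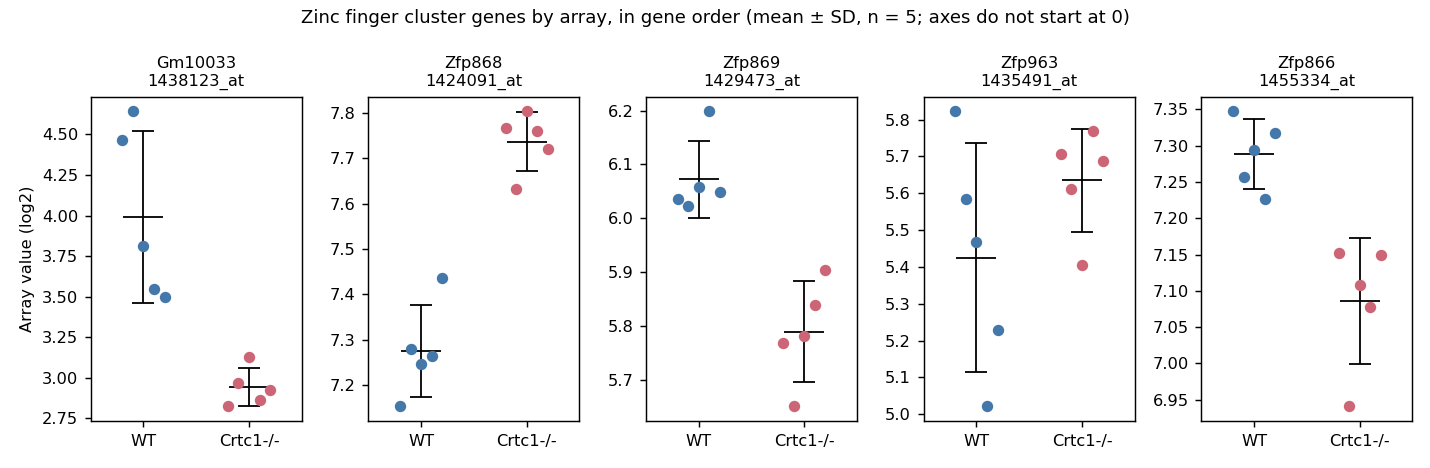
Log2 array values (y axis of each panel, not starting at 0) of the 5 cluster genes, in gene order from Gm10033 to Zfp866, in 5 WT (blue) and 5 Crtc1-/- (red) mice, with each mouse as a point, the group mean as a long tick and the SD as bars. Readings are lower in Crtc1-/- mice for Gm10033, Zfp869 and Zfp866 and higher for Zfp868, while the groups of Zfp963 overlap.

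The cluster as a whole can be set against all genes. In the fit over genes with limma at an adjusted p of 0.05, 3 of the 5 genes passed (Gm10033, Zfp868 and Zfp869), where 0.764% of all genes did (0.456% lower and 0.308% higher). Over probe sets Zfp868 alone passed, where 0.302% of all probe sets did (0.187% lower and 0.115% higher). Groups did not overlap in 4 of the 5 genes, in 3.14% of all genes and in 2.08% of all probe sets. As the same contrast chose the genes, nothing is read from these counts. Of all probe sets, 95.8% to 99.96% had a smaller difference in size than the 5 members.

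Crtc1 itself, which lies outside the cluster, checks the genotype labels. Its brightest probe set 1434476_at read from 9.51 to 9.86 in WT mice and from 5.96 to 6.60 in Crtc1-/- mice, a log2 fold change of -3.32 (standard error 0.12). Of its other probe sets, 1458443_at differed by -1.78 (standard error 0.11) with no overlap, whereas 1446533_at differed by -0.03 (standard error 0.06) with overlapping groups. Where these probe sets lie relative to the deleted part is not given in the sources used here. Between the cluster and Crtc1 the arrays measured 26 genes, and none of them passed in limma over genes (8 of 26 had an unadjusted p under 0.05, beside 9.86% of all genes), with log2 fold changes from -0.33 to 0.24. On the cluster's side of Crtc1, 6 of 49 measured genes within 100 positions passed, and 3 of these were the cluster genes. On the other side 11 of 53 passed, and of all genes 0.764% did. Of the 102 genes on both sides, the cluster included, 9 passed with lower and 8 with higher values in Crtc1-/- mice. The nearest measured gene on the Crtc1 side of the cluster, 36 positions from Crtc1, was Atp13a1, a P-type ATPase of the endoplasmic reticulum, with a log2 fold change of -0.03 (adjusted p = 0.903 over genes). On the far side it was Zfp930, another zinc finger gene, 53 positions from Crtc1, with 0.03 (adjusted p = 0.928 over genes). The dimmer probe set of Zfp930, 1427518_at, differed by 0.16 (adjusted p = 0.673 over probe sets from limma). These are the values just outside the cluster, against -0.20 at its inner edge (Zfp866) and -1.05 at its outer edge (Gm10033). As the members were chosen in part by their fold changes, this contrast follows in part from that choice. Whether the differences have a boundary at these edges was not tested.

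**Figure D2:**
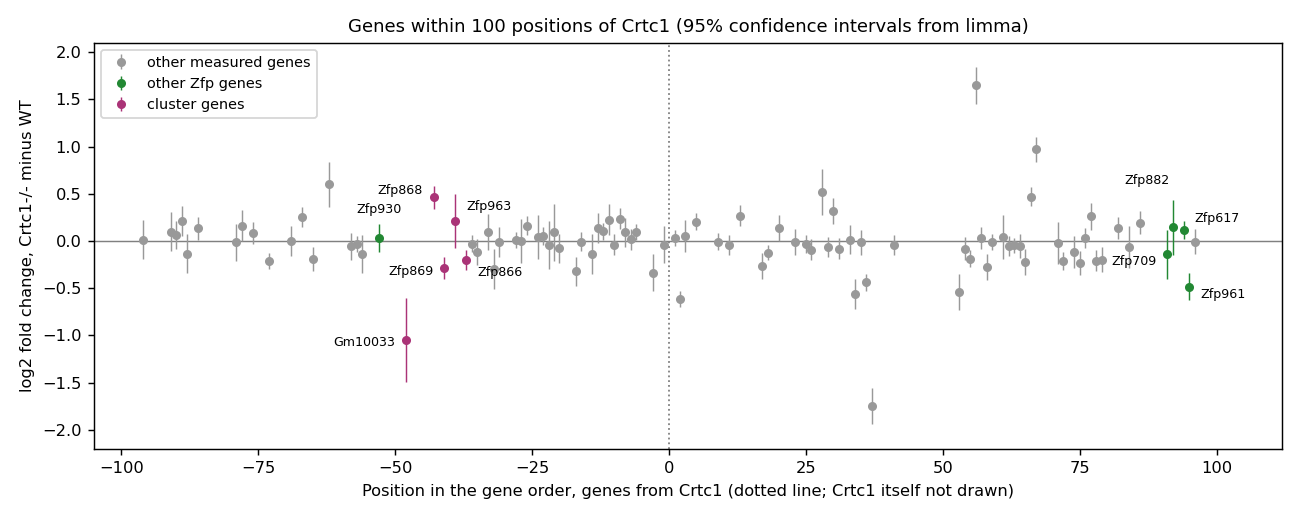
Log2 fold change, Crtc1-/- minus WT (y axis), against the position in the gene order counted in genes from Crtc1 (x axis, dotted line at Crtc1, which is not drawn), with 1 point per measured gene and 95% confidence intervals from limma as bars. The cluster genes (purple) lie 37 to 48 genes to the left with points on both sides of 0, Zfp930 lies near 0 beyond them, and 4 more Zfp genes (green) lie 91 to 95 genes to the right, among them Zfp961 at -0.48.

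Another group of zinc finger genes lies on the opposite side of Crtc1, 91 to 95 positions away, and holds the measured genes Zfp709, Zfp882, Zfp617 and Zfp961. These genes were not used to choose the cluster, and they were tested. Zfp961 fell from 6.15 ± 0.13 to 5.67 ± 0.08 (SD, n = 5 per genotype) at probe set 1434296_at, which stands for the gene (log2 fold change -0.48, adjusted p = 0.0045 over genes from limma). Its dimmer probe set 1433390_at differed by 0.06 (adjusted p = 0.954 over probe sets from limma). For Zfp882 the order was turned. The brighter probe set 1443640_at differed by 0.14 (adjusted p = 0.822 over genes from limma), whereas the dimmer 1443931_at fell by 0.93 (adjusted p = 0.0174 over probe sets from limma), from between 4.08 and 4.85 in WT mice to between 3.33 and 3.88 in Crtc1-/- mice.

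Zfp617 read 8.58 ± 0.06 in WT and 8.70 ± 0.06 in Crtc1-/- mice (SD, n = 5 per genotype, log2 fold change 0.12, adjusted p = 0.365 over genes from limma), and its other probe set 1449546_a_at differed by -0.01 (adjusted p = 0.990 over probe sets from limma). Zfp709 differed by -0.14 (adjusted p = 0.802 over genes from limma), and by -0.24 at the dimmer 1459386_at (adjusted p = 0.727 over probe sets from limma). Zfp961 and Zfp882 each had 1 of 2 probe sets past the threshold. Genes of this family can share near-identical stretches, and the sequences of the probes were not used here. Which family member a probe set reads is therefore uncertain for these genes and for the cluster. Whether the DNA inherited with the targeted allele differs in sequence at these probes was not tested. None of the 5 cluster probe sets has an identifier ending in _x_at or _s_at, the manufacturer's marks for probes shared between transcripts.

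The other zinc finger genes of the array passed about as often as all genes. Of 301 genes named Zfp with a number outside the cluster, 2 fell and none rose in limma over genes (26, or 8.64%, had an unadjusted p under 0.05, beside 9.86% of all genes). The share that passed was 0.664%, beside 0.764% of all genes, and their median log2 fold change was -0.009 beside -0.003 for all genes. The 2 that fell were Zfp961 and Zfp296 (-0.28, standard error 0.06, adjusted p = 0.0425), which lies outside the 100 positions around Crtc1. Groups did not overlap in 8 of the 301 genes (2.66%), beside 3.14% of all genes. As the cluster genes were chosen by these fold changes, their place among the 301 follows in part from that choice and is a description. None of the 301 read as far down as Gm10033 or as far up as Zfp868, 2 had a log2 fold change below that of Zfp869, 8 below that of Zfp866, and 5 above that of Zfp963.

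**Figure D3:**
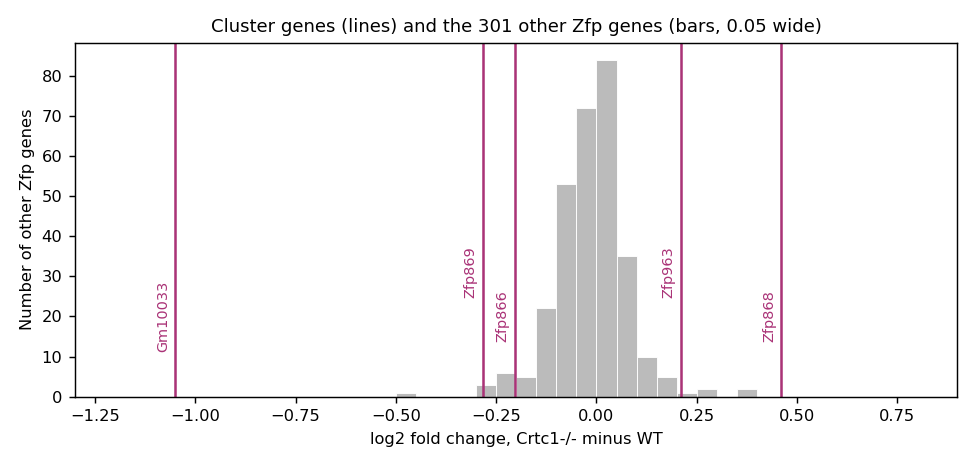
Number of other Zfp genes (y axis, bars 0.05 wide, 301 genes) by log2 fold change from WT to Crtc1-/- mice (x axis), with the 5 cluster genes as purple lines. The bars range from -0.48 to 0.37, and Gm10033 at -1.05 and Zfp868 at 0.46, chosen by these values, lie outside them.

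Genes of the corepressor machinery that KRAB zinc finger proteins use showed no call in either direction. Of 35 listed genes 32 were measured, and 0 fell and 0 rose in limma over genes, where 0.764% of all genes passed. With so low a share, 0 calls among 32 genes tells little. An unadjusted p under 0.05 was found for 2 of the 32 (6.25%), beside 9.86% of all genes. Their median log2 fold change was -0.01, with 21 of 32 values below 0. The 4 with the smallest p were Chd4, a helicase of the NuRD complex (0.12, adjusted p = 0.425), Zfp57, a KRAB zinc finger protein that protects imprinted genes (-0.24, adjusted p = 0.471), Chd3, another NuRD helicase (-0.10, adjusted p = 0.619), and Kdm1a, a histone demethylase (0.08, adjusted p = 0.655). Trim28, the partner of the KRAB domain, differed by -0.02 (adjusted p = 0.937 over genes from limma), and Setdb1 by 0.03 (adjusted p = 0.89 over genes from limma). At the brightest probe set of each gene, the log2 fold changes of the measured genes of this list ran from -0.24 to 0.12. At these probe sets only Zfp57 reached 0.2 in size (1 of 32, 3.12%), beside 4.71% of all genes. With the mean of all probe sets Chd4 differed by 0.27 (standard error 0.115) and Kdm1a by 0.05, and neither passed. Zfp57 and Zfp809, which is also on the list, are zinc finger genes and are counted among the 301 others as well.

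Within a genotype, the 5 genes were compared through their deviations from the genotype mean, which leave out the contrast that chose them. Over 10 arrays the highest of the 10 pairwise correlations was between Gm10033 and Zfp963 (r = 0.67, exact permutation within genotypes, two-sided p = 0.166, and rho = 0.55, exact permutation p = 0.216). After Benjamini-Hochberg correction over the 10 pairs the permutation p was 0.503 for r and 0.717 for rho. Without the 2 arrays farthest from the median of Gm10033, which are WT replicates 1 and 2, this r was 0.43. The lowest was between Zfp868 and Zfp963 (r = -0.51, permutation p = 0.223, and rho = -0.32, permutation p = 0.426), with r = -0.08 without the 2 arrays farthest from the median of Zfp868. The deviations of Gm10033 and Zfp963 had the same sign in 4 of 5 WT mice and opposite signs in all 5 Crtc1-/- mice. Among Crtc1-/- mice they were 0.18 and -0.23 in replicate 3 but only 0.03 and -0.02 in replicate 2. Whether the relation differs between the genotypes was not tested. With 5 mice per genotype no correlation within a genotype is given. Of the 10 pairs, 6 had r above 0 and 4 below 0, none had a permutation p under 0.05, and 10 arrays cannot show weaker relations.

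The 5 genes differed in how much they varied among mice of 1 genotype. The within-genotype SD, pooled over both genotypes, was 0.38 for Gm10033, larger than that of 99.8% of probe sets of like brightness (means within 0.5 on the log2 scale), and 0.24 for Zfp963, larger than that of 88.0%. The wide spread of these 2 genes lay in WT mice. For Gm10033 the SD was 0.53 in WT and 0.12 in Crtc1-/- mice, and for Zfp963 it was 0.31 and 0.14. The median pooled SD at like brightness was 0.13 and 0.14. The pooled SD was 0.09 for Zfp868, 0.08 for Zfp869 and 0.07 for Zfp866, which is larger than that of 38.2%, 10.7% and 16.5% of probe sets of like brightness. The genes with the largest and with the smaller spread are interleaved along the chromosome, as Zfp963 lies between Zfp869 and Zfp866.

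**Figure D4:**
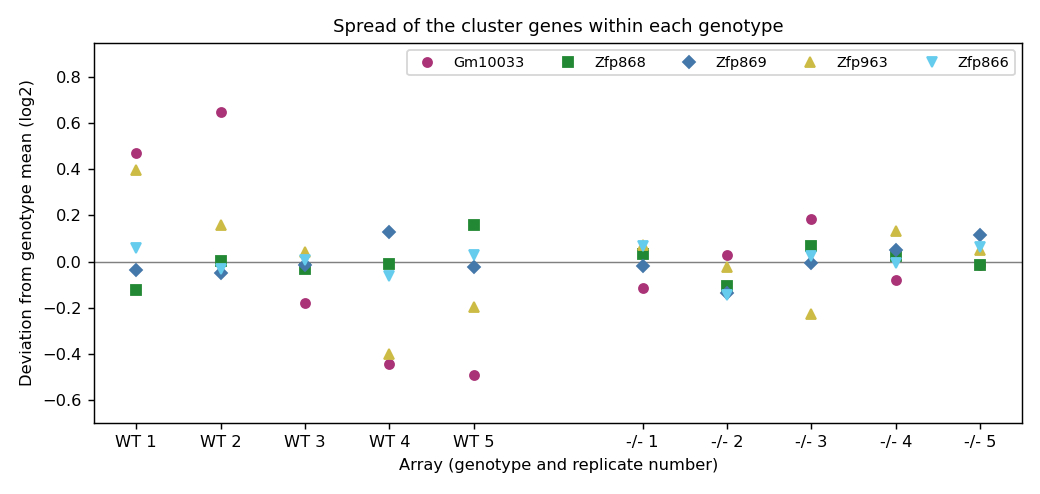
Deviation of each cluster gene from the mean of its genotype (y axis, log2 scale) in each array (x axis, WT replicates 1 to 5, then Crtc1-/- replicates 1 to 5), with 1 symbol per gene. Gm10033 and Zfp963 spread most, above all in WT mice, and the other 3 genes spread less. The symbols of Gm10033 and Zfp963 lie on the same side of their means in 4 of 5 WT mice and on opposite sides in all 5 Crtc1-/- mice.

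The genes whose values over the 10 arrays were most like those of the members, by Pearson's r over these arrays among 18192 other genes, were mostly located elsewhere. They were Pde2a, Ikzf4 and Ap2a2 for Gm10033 (r from 0.959 to 0.965), Ppp3ca, Ocel1 and Lamp5 for Zfp868 (0.955 to 0.973), Gdap1l1, Rogdi and Haus8 for Zfp869 (0.933 to 0.963), Acsbg1, Pgp and Atp1b2 for Zfp963 (0.946 to 0.956), and Rspo1, Pdk1 and Sik3 for Zfp866 (0.931 to 0.947). Of these 15, Ocel1 and Haus8 lie within 100 positions of Crtc1, 56 and 53 genes away on its other side. Crtc1 left out, 102 of the 18193 genes measured lie within that distance. No cluster gene was among the 3 most like another. The r values describe likeness only, since they hold the genotype difference as well as the spread of single mice. Between members that differed in opposite directions, a low r follows in part from the choice of the genes.

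Markers of the labelled tissue, the cortex, were read strongly in every array. Of 10 listed, 9 were measured, with a mean of 9.68 ± 0.04 in WT and 9.67 ± 0.01 in Crtc1-/- mice (SD, n = 5 per genotype). Among 8 marker lists the hippocampal mean was 6.22 ± 0.08 in WT and 6.08 ± 0.06 in Crtc1-/- mice (SD, n = 5 per genotype, exact permutation p = 0.00794, adjusted p = 0.0635 over the 8 lists), and the oligodendrocyte mean was 10.17 ± 0.16 and 10.38 ± 0.12 (SD, n = 5 per genotype, exact permutation p = 0.0476, adjusted p = 0.127). The smallest two-sided p that 5 mice against 5 allow is 0.00794. The astrocyte mean was 10.26 ± 0.07 in WT and 10.37 ± 0.05 in Crtc1-/- mice (SD, n = 5 per genotype, exact permutation p = 0.0397, adjusted p = 0.127). Readings were higher in Crtc1-/- mice for 6 of 6 astrocyte, 11 of 11 oligodendrocyte and 3 of 11 hippocampal markers. The lists of striatum, choroid plexus, blood and microglia had adjusted permutation p from 0.349 to 0.929.

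**Figure D5:**
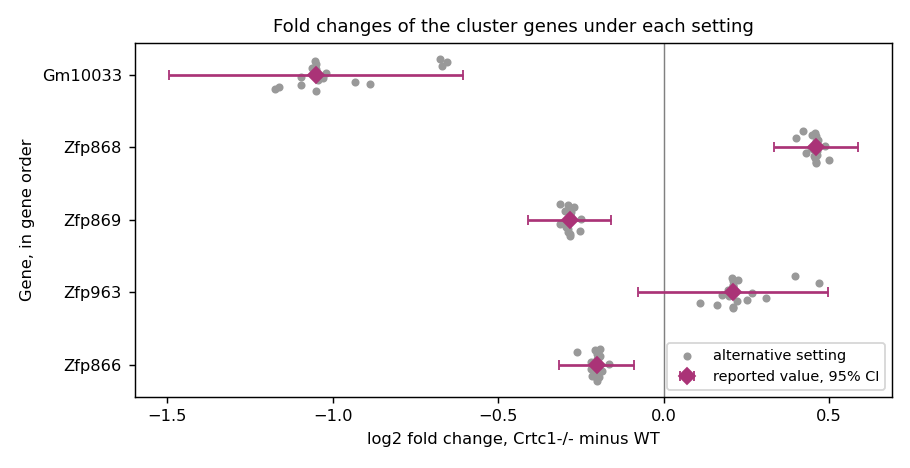
Log2 fold change from WT to Crtc1-/- mice (x axis) of each cluster gene in gene order (y axis), with the reported value and its 95% confidence interval from limma in purple and the value under each alternative setting as a grey point. Every grey point lies on the side of 0 of its reported value, from -1.17 to -0.65 for Gm10033, 0.40 to 0.50 for Zfp868, -0.31 to -0.25 for Zfp869, 0.11 to 0.47 for Zfp963 and -0.26 to -0.17 for Zfp866.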

How the data were processed

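Cortical RNA of each mouse was measured on 1 array (5 WT, 5 Crtc1-/-), labelled with the 3′ IVT Express kit, and the study excluded arrays that failed its quality control in RACE. The deposited log2 values, 1 per probe set and array, were normalized by the authors before deposit, by methods of background correction, scaling and summarization that are not given in the sources used here. Array medians lay within 0.03.

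Of 45101 probe sets, 64 controls were left out. The platform annotation, which states no genome build, names 1 gene for 34945 probe sets, several for 932 and none for 9160. By identifier, 34741 matched the gene table of GRCm38.p6, which gave names and gene order. Each of 18193 genes was represented by its brightest probe set. Linear models with moderated variances were run in limma 3.58.1 (R 4.3.3), with Benjamini-Hochberg correction over everything tested and a threshold of 0.05. Permutations were exact. The number of arrays limits the precision.

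The members, lists and tests were chosen with earlier results of these data known. The named genes are the 5 members, Crtc1, Zfp genes within 100 positions of Crtc1, the measured neighbours of the cluster, up to 5 called Zfp genes per direction, the 4 corepressor genes with the smallest p and 3 genes per member with the most similar values. Trim28 and Setdb1, the other genes of the stretch and the dimmer probe sets were named after their values were seen. Protein sequences were not used here. Alternatives were quantile normalization, centring on medians, filters on probe sets that were dim or marked as cross-hybridizing, a trended and robust prior, the replicate number as a block, marker means as covariates, averaging the probe sets of each gene and leaving out arrays. Equal replicate numbers gave no sign of pairs: 1 of 5 WT arrays was closest to the Crtc1-/- array with the same number. The correlations of the 5 pairs ran from -0.33 to 0.09. With so few pairs this check cannot exclude that equal numbers mark pairs.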

Additional observations from a re-analysis of the deposited data

Results flagged for a closer look

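Among 34 groups of 5 mice, for the named genes that were checked, 3 held a mouse far from the others, where chance alone gives about 1 in 20. At Zfp869, WT replicate 4 read 6.20, above the other 4 WT mice. Outside the cluster, Crtc1-/- replicate 2 read 5.71 for Zfp296, above the other Crtc1-/- mice, and Crtc1-/- replicate 5 read 9.93 for Chd3, below them. Without WT replicate 4 the log2 fold change of Zfp869 was -0.25.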

How the results depend on the processing

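The 5 cluster genes kept the direction of their difference under every alternative run (19 for Gm10033, which the filter on dim probe sets removes, and 20 for each of the others). Zfp868 passed over genes in limma in 19 of 20, Gm10033 in 7 of 19, Zfp869 in 6 of 20, and Zfp963 and Zfp866 in none. Of the 3 cluster genes that passed over genes, 0 passed with the hippocampal marker mean as a covariate, where the log2 fold change of Gm10033 was -0.65, and those of Zfp868 (0.45) and Zfp869 (-0.27) moved little while their standard errors rose to 0.09, and 1 with the oligodendrocyte marker mean, where that of Zfp963 was 0.47. With a trended and robust prior 1 passed. When the replicate number entered as a block, in mice not known to share more than a number, 1 cluster gene passed. In this fit 28 probe sets fell and 12 rose, 36 genes fell and 26 rose, and 1 other zinc finger gene fell. The fit without the block had 84 and 52, 83 and 56, and 2. With the hippocampal covariate 9 probe sets fell and 5 rose, 11 genes fell and 7 rose, and 0 other zinc finger genes fell. With the oligodendrocyte covariate 21 and 9, 32 and 22, and 0 and 1. With the trended prior 154 and 85, 148 and 88, and 1 other zinc finger gene fell. Without WT replicates 1 and 2, chosen after the values were seen, 28 and 16, 38 and 24, and 1 and 1. Quantile normalization, centring on medians and the mean of all probe sets each left 1 other zinc finger gene, and with that mean the log2 fold change of Zfp961 was -0.21 without passing. The causes of these moves were not tested. Leaving out arrays singly, 1 to 2 cluster genes passed, 45 to 77 probe sets fell and 24 to 40 rose, 55 to 69 genes fell and 33 to 51 rose, and 1 to 2 other zinc finger genes fell and 0 to 1 rose. Left out in turn, the log2 fold changes ran from -1.17 to -0.89 for Gm10033, from 0.43 to 0.50 for Zfp868, from -0.31 to -0.25 for Zfp869, from 0.11 to 0.31 for Zfp963 and from -0.22 to -0.17 for Zfp866. The call of Gm10033 held without WT replicate 4 or 5 and was lost without any other array, and that of Zfp869 held without Crtc1-/- replicate 5 alone. Zfp296 lost its call in most settings and kept its direction. As each member has 1 probe set, the mean of all probe sets gives the same values for them.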
